A study of Mus musculus with 12 samples.

Results

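The genes described here are 10 genes of the YAP and Hippo system in cultured mouse glial cells. They are the coactivator genes Yap1 and Wwtr1, the kinase genes Lats1 and Lats2, the scaffold genes Amotl1, Amotl2 and Ajuba, and the YAP target genes Ccn1, Ccn2 and Ankrd1. They were taken by symbol from a table of 43322 genes, and all 10 were found. Of these, 9 were among the 17077 genes with enough counts to be tested, and Ankrd1 was not.

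RNA was sequenced from primary cultures of the postnatal cortex of wild-type CD1 mice, prepared at P3 to P5 and grown with epidermal growth factor. There were 3 groups of 4 libraries, numbered 1 to 4 in each group. The control group received vehicle. The thapsigargin group received 3 µM thapsigargin for 60 min, which blocks the SERCA pumps that load calcium into the endoplasmic reticulum. The calcium-free group was kept for 60 min in medium without calcium and with EGTA, a chelator that removes free calcium. Per the labels' protocols, the frontal cortices of a single mouse gave a culture, and the series text calls the libraries of a group biological replicates. Library totals ran from 36.19 to 42.57 M counts.

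In the Hippo pathway, the kinases encoded by Lats1 and Lats2 phosphorylate YAP (Yap1) and TAZ (Wwtr1), which keeps these coactivators out of the nucleus. In the nucleus YAP and TAZ bind TEAD factors and switch on target genes such as Ccn1, Ccn2 and Ankrd1. Several inhibitors of YAP are themselves YAP targets, among them Lats2 and Amotl2, so the pathway holds a negative feedback loop. Angiomotins such as Amotl1 and Amotl2 bind YAP at junctions and on actin and hold it in the cytoplasm. Ajuba proteins bind LATS kinases at junctions under tension. YAP in astrocytes and their precursors is known for its part in growth and in the response to injury.

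The culture label was checked against marker genes. All 10 astrocyte markers were expressed above 1 CPM (counts for every 1 M of normalised library size) on average, led by Slc1a3 at 2638 and Gfap at 1359 CPM in control. Other cells were present. All 8 microglia markers were above 1 CPM, with a summed level of 74.1 to 125 CPM over the controls, 58.7 to 89.9 CPM over the thapsigargin libraries and 69.1 to 102 CPM over the calcium-free libraries. The astrocyte markers summed to 6500.4 to 7729 CPM in control, 5694 to 6891 CPM under thapsigargin and 6709.5 to 7863 CPM without calcium. In replicates 1 to 3 alone, both sums were lower in each thapsigargin library than in any control, at 84.1 to 89.9 against 113 to 125 CPM for microglia and 6285 to 6891 against 7564 to 7729 CPM for astrocytes. The astrocyte marker Sox9 went the other way, at 155 to 164 CPM in control and 192 to 207 CPM with thapsigargin. The other listed astrocyte markers had lower means with thapsigargin. The part of both sums in the results below was not tested. Of 10 vascular, meningeal and fibroblast markers, 6 were above 1 CPM, and their summed level was 2492 to 3443 CPM in control, 2129 to 2909 CPM with thapsigargin and 2766 to 3605 CPM in calcium-free medium. The smooth muscle actin gene Acta2 and the collagen genes Col1a2 and Col1a1 made up most of that sum. The endothelial markers Cldn5 and Pecam1 were near 0, at 0.00596 and 0.497 CPM in control. In control, 7 of 8 oligodendrocyte lineage markers were above 1 CPM, with a sum of 1786 to 1910 CPM. Of these Olig1 was at 1329 CPM and Sox10 at 0.0561 CPM. So were 5 of 8 neuron markers (396 to 428 CPM) and 4 of 5 ependymal and progenitor markers (1541 to 1618 CPM). All 5 proliferation markers were above 1 CPM, with a sum of 1316 to 1714 CPM. The part of these lists in the results below was not tested. In bulk samples such as these, fewer cells of a type and less RNA per cell cannot be told apart.

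Replicate 4 stood apart from replicates 1 to 3 in every group. Col1a1 was 73.2 CPM in control replicate 4 against 577 to 632 CPM in the other controls, 53.5 against 539 to 571 CPM with thapsigargin, and 80.0 against 586 to 656 CPM in calcium-free medium. Gfap was 788 CPM in control replicate 4 against 1525 to 1579 CPM. The X-inactivation transcript Xist was 588 to 740 CPM in the replicate 4 libraries and 0.0832 to 0.319 CPM in the other 9. Deviations from the group means were shared between the replicate 4 libraries (r 0.804 to 0.827). Among replicates 1 to 3, libraries of the same number were no more alike than those of different numbers. A fit with the replicate number as a block is also given for the members. Blocked counts are given for some of the lists below, and their absence for others does not mean that nothing changed. For the list genes named below the blocked fit is given where it changes a call against control.

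The promoters of the members show the letters through which TEAD factors are known to bind DNA. In the RefSeq promoter table (GRCm38.p6), 9 of 10 members had an entry of 300 bases, from 250 before to 50 after the start, and Ccn2 had none. The TEAD core GGAATG, searched on both strands (its reverse complement is CATTCC), was in 7 of these 9 windows and in 14.7% of the 32851 promoters of the table. The windows of Lats1 and Amotl1 did not hold it. Below are the 250 bases before the start, 5′ to 3′ on the gene's strand, with the TEAD core in capitals, for the genes with the largest responses, for Ankrd1 as a target that was hardly expressed, and for Lats1 as a gene that responded and has no match.
Amotl2: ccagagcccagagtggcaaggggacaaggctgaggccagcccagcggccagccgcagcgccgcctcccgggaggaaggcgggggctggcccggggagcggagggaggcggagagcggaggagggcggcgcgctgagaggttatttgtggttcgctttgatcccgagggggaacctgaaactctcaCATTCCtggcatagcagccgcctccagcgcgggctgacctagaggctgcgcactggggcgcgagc
Ajuba: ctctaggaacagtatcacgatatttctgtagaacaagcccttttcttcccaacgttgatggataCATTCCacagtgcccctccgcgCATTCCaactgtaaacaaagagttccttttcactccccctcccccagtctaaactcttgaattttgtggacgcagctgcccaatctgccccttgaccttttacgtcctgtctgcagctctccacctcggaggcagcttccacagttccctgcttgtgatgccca
Ccn1: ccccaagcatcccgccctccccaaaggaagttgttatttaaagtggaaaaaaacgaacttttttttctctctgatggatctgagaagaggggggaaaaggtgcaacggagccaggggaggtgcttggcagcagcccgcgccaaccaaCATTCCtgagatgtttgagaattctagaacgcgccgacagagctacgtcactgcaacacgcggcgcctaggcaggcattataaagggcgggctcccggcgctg
Ankrd1: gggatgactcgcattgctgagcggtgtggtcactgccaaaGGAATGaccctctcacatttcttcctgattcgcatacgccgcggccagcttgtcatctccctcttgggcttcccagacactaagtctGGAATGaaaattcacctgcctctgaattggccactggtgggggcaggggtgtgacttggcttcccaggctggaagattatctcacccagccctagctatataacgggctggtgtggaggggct
Lats1: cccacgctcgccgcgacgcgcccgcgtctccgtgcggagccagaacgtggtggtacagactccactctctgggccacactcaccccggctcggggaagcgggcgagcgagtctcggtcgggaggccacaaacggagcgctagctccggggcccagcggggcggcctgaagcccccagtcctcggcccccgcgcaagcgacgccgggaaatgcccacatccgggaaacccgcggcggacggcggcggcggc

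In genome coordinates of GRCm38.p6, the Amotl2 stretch is chr9:102717554-102717803 on the plus strand and the Ajuba stretch is chr14:54577662-54577911 on the minus strand. The Ccn1 stretch is chr3:145649986-145650235 on the minus strand, and the Ankrd1 stretch is chr19:36119845-36120094 on the minus strand. The Lats1 stretch is chr10:7680959-7681208 on the plus strand. Counted from the start, the first base of the match lies at -65 in Amotl2, at -186 and -164 in Ajuba, at -103 in Ccn1, and at -210 and -123 in Ankrd1. Yap1 had a match at -141, Wwtr1 at -136 and Lats2 at 5, past its start.

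Other motifs were searched in the same windows on both strands. The AP-1 site TGANTCA was in 7.81% of all promoters, the cyclic AMP element TGACGTCA in 1.79% and the SRF CArG box in 1.63%, and none of the 9 member windows held any of these. The shorter TGACG, which is part of the full element, was in 20.8% of all promoters and in the windows of Lats2, Amotl1 and Ccn1. A match here is a run of letters and not a shown binding site.

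The first question was which of these genes changed when the SERCA pumps were blocked. Thapsigargin raised 5 of the 9 tested members: Amotl2 3.15-fold, Ccn1 1.73-fold, Ajuba 1.72-fold, Lats1 1.46-fold and Amotl1 1.12-fold. Among all 17077 genes tested, 16.4% rose and 14.8% fell (edgeR quasi-likelihood test, Benjamini-Hochberg adjusted p under 0.05). In the fit without a replicate block no member passed in the lower direction with edgeR or DESeq2, and 0 did at an unadjusted edgeR p under 0.05. Over all genes, 6842 had an unadjusted p under 0.05 in either direction. With the block, or without replicate 4 of every group, Ccn2 was called lower, as given with that gene. The median log2 fold change was 0.17 over the members tested and -0.05 over all genes tested. The members were chosen with earlier results of these data known. These counts and medians are therefore a description and not a test against all genes.

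The second question was which of them changed when calcium was removed from outside the cells. Calcium-free medium raised 4 of the 9: Amotl2 2.00-fold, Lats1 1.42-fold, Ajuba 1.35-fold and Lats2 1.23-fold. Among all genes tested, 3.78% rose and 1.55% fell. All 9 tested members were higher than the control of the same replicate number in 4 of 4 pairs. The share of all genes with that pattern was not computed, so the count is not read as a result about the members. No member passed in the lower direction with edgeR or DESeq2, and 0 had an unadjusted edgeR p under 0.05 there. Over all genes, 3030 of 17077 had an unadjusted p under 0.05 in either direction. The members' median log2 fold change was 0.30, against -0.01 over all genes tested. The limit from the choice of members holds here too. The 2 treatments are compared with the same 4 control libraries, so their changes are not independent of each other.

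**Figure D1:**
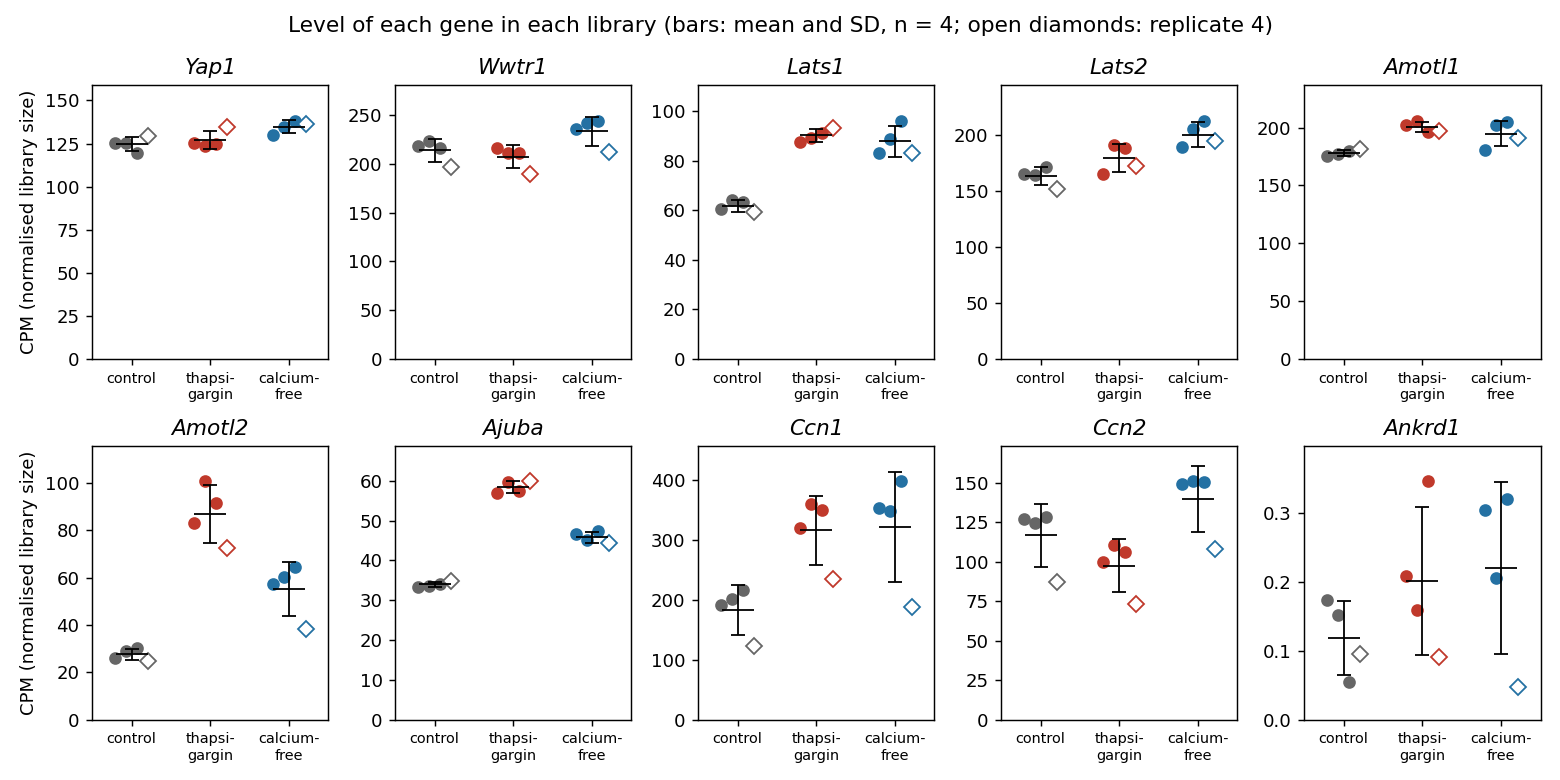
CPM of each member in every library, 1 panel per gene with its own axis starting at 0, with libraries grouped as control, thapsigargin and calcium-free, open diamonds for replicate 4 and bars for the group mean and SD (n = 4). Amotl2 rises from 24.9 to 30.3 CPM in control to 72.3 to 101 CPM with thapsigargin, and Ccn1 and Ccn2 are lowest in replicate 4 of every group.

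The coactivator genes themselves moved little. Yap1, the gene of YAP (GRCm39 9:7932000-8004890, minus strand), was at 126, 125, 119.7 and 129 CPM in control replicates 1 to 4. It was at 125, 124, 125 and 135 CPM with thapsigargin and at 129.99, 135, 138 and 136 CPM in calcium-free medium. The thapsigargin libraries overlapped the controls, while every calcium-free library was above the highest control by a narrow margin. The log2 fold change was 0.02 ± 0.04 (SE) with thapsigargin (95% interval -0.06 to 0.11, edgeR adjusted p = 0.699) and 0.11 ± 0.04 in calcium-free medium (edgeR adjusted p = 0.144). With the replicate block the calcium-free value had an edgeR adjusted p of 0.0177.

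Wwtr1, the gene of TAZ (GRCm39 3:57363065-57483331, minus strand), was the more abundant of the pair. Its controls were at 218, 223, 217 and 197 CPM, the thapsigargin libraries at 216, 211, 211 and 189.9 CPM, and the calcium-free libraries at 235, 241, 244 and 212 CPM. Replicate 4 was the lowest of each group, and all 3 groups overlapped. Its log2 fold change was -0.04 ± 0.06 with thapsigargin (95% interval -0.17 to 0.08, edgeR adjusted p = 0.614) and 0.13 ± 0.06 in calcium-free medium (edgeR adjusted p = 0.278, or 0.00247 with the replicate block). Per kb of exon, Yap1 stood at 0.627 ± 0.0509 of Wwtr1 in control, 0.658 ± 0.0656 in thapsigargin-treated cells and 0.619 ± 0.0453 without calcium (mean ± SD of 4 libraries).

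Of the LATS kinase genes, Lats1 rose with both treatments and Lats2 passed in calcium-free medium. Lats1 (GRCm39 10:7556964-7592225, plus strand) was at 60.4, 64.4, 63.2 and 59.2 CPM in control. It was at 87.5, 89.1, 91.5 and 93.2 CPM with thapsigargin and at 83.2, 88.7, 96.2 and 83.3 CPM in calcium-free medium. No treated library overlapped a control, and the treated groups overlapped each other. The fitted log2 fold change was 0.55 ± 0.05 with thapsigargin (edgeR adjusted p = 7.235e-06) and 0.51 ± 0.05 in calcium-free medium (edgeR adjusted p = 2.273e-04).

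Lats2 (GRCm39 14:57927119-57983669, minus strand) is the family member known as a YAP target. Its controls were at 165, 164, 171 and 152 CPM, the thapsigargin libraries at 165, 191, 188 and 172 CPM, and the calcium-free libraries at 189, 205, 212 and 194 CPM. Calcium-free libraries were all above the controls, whereas thapsigargin replicate 1 lay among them. Its log2 fold change was 0.30 ± 0.06 in calcium-free medium (edgeR adjusted p = 0.0130) and 0.14 ± 0.06 with thapsigargin (95% interval 0.01 to 0.26, edgeR adjusted p = 0.0967). The calcium-free call was lost without calcium-free replicate 2 (edgeR adjusted p = 0.0511). For thapsigargin, the replicate block gave an edgeR adjusted p of 0.00214, and leaving out thapsigargin replicate 1 gave 0.0460.

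Among the angiomotins, Amotl2 had the largest change of all members. Amotl2 (GRCm39 9:102594290-102610616, plus strand) was at 26.2, 28.9, 30.3 and 24.9 CPM in control. With thapsigargin it was at 82.9, 101, 91.6 and 72.3 CPM, and in calcium-free medium at 57.5, 60.1, 64.3 and 38.4 CPM. The 3 groups did not overlap, and calcium-free replicate 4 was the treated library nearest to the controls. The log2 fold change was 1.65 ± 0.15 with thapsigargin (95% interval 1.33 to 1.98, edgeR adjusted p = 6.786e-06) and 1.00 ± 0.15 in calcium-free medium (edgeR adjusted p = 0.00272). Ordered by log2 fold change among the 17077 genes tested, Amotl2 was number 33 from the top with thapsigargin and number 24 in calcium-free medium.

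Amotl1 (GRCm39 9:14453262-14574408, minus strand), a relative that was more abundant in control, had smaller changes. It was at 175, 177, 179.5 and 181 CPM in control, at 202, 206, 196 and 197 CPM with thapsigargin and at 181, 202, 205 and 191 CPM in calcium-free medium. Thapsigargin libraries were all above the controls, and calcium-free replicate 1 lay among the controls. Its log2 fold change was 0.17 ± 0.04 with thapsigargin (edgeR adjusted p = 0.00779) and 0.13 ± 0.04 in calcium-free medium (edgeR adjusted p = 0.107). The calcium-free value passed with the replicate block (edgeR adjusted p = 0.0126) and without calcium-free replicate 1 (edgeR adjusted p = 0.0187). Per kb of exon, the level of Amotl2 was 0.384 ± 0.0347 of that of Amotl1 in control, 1.08 ± 0.138 under thapsigargin and 0.701 ± 0.137 without calcium (mean ± SD of 4 libraries). In thapsigargin-treated cultures that ratio ran from 0.909 to 1.21, and in control from 0.342 to 0.419.

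Ajuba (GRCm39 14:54804926-54815118, minus strand), a LIM-domain scaffold that binds LATS kinases, rose with both treatments. It was at 33.4, 33.7, 34.05 and 34.9 CPM in control, at 56.9, 59.8, 57.4 and 59.8 CPM with thapsigargin, and at 46.5, 45.01, 47.4 and 44.4 CPM in calcium-free medium. The 3 groups were separate, with calcium-free medium between the others. The fitted log2 fold change was 0.78 ± 0.04 with thapsigargin (edgeR adjusted p = 1.075e-07) and 0.43 ± 0.04 in calcium-free medium (edgeR adjusted p = 5.564e-05). Replicate 4 lay close to the others for this gene.

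**Figure D2:**
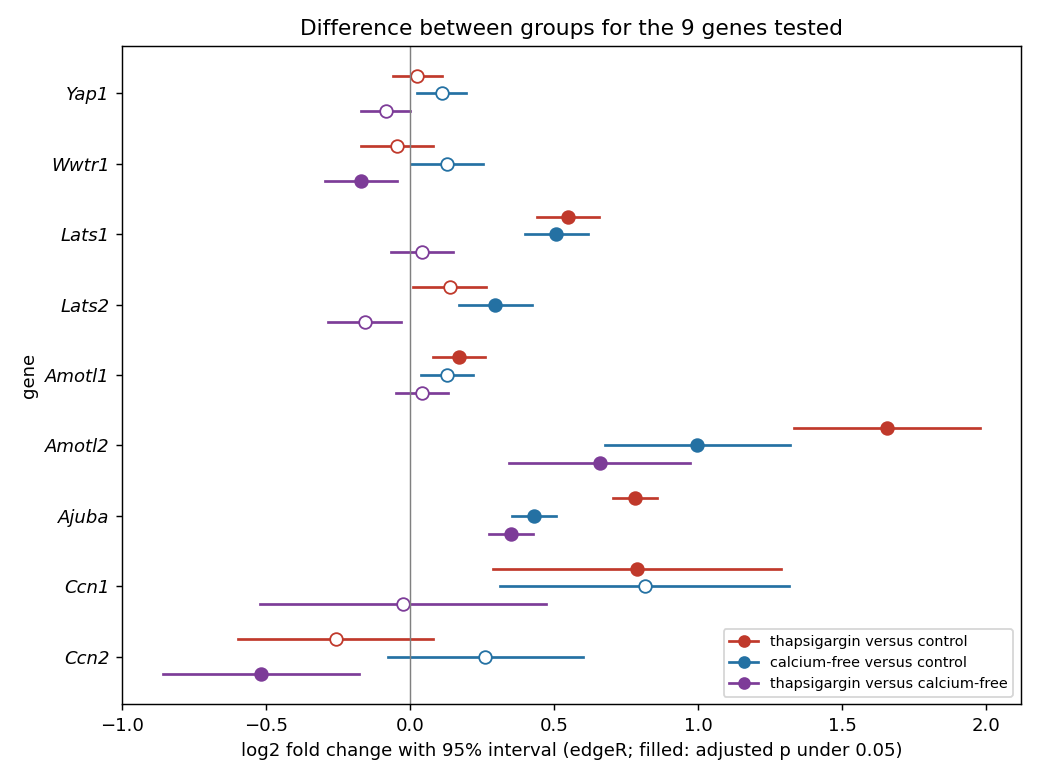
Log2 fold change of each tested member for thapsigargin versus control, calcium-free versus control and thapsigargin versus calcium-free, with bars for the 95% interval and filled points for an edgeR adjusted p under 0.05. Amotl2 is the farthest from 0 in the thapsigargin comparison at 1.65, and Ccn1 and Ccn2 have the widest intervals.

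The secreted target genes Ccn1 and Ccn2 encode matricellular proteins of the CCN family and are common readouts of YAP activity. Ccn1 (GRCm39 3:145352726-145355740, minus strand) was at 192, 202, 217 and 123 CPM in control, at 321, 360.0, 350.4 and 234 CPM with thapsigargin, and at 353, 349, 398 and 189 CPM in calcium-free medium. Replicate 4 was the lowest of each group, and its calcium-free value was just below the controls of replicates 1 to 3. With thapsigargin, Ccn1 rose with a log2 fold change of 0.79 ± 0.23 (95% interval 0.29 to 1.29, edgeR adjusted p = 0.0205). That call was lost without thapsigargin replicate 2 (edgeR adjusted p = 0.0581), without thapsigargin replicate 3 (edgeR adjusted p = 0.0548) and with no filter on low counts (edgeR adjusted p = 0.0643). It held with the replicate block (0.80 ± 0.07, edgeR adjusted p = 2.574e-05) and without replicate 4 of every group (0.80 ± 0.07, edgeR adjusted p = 9.156e-06).

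In calcium-free medium the fitted change of Ccn1 was as large, at 0.81 ± 0.23 (95% interval 0.31 to 1.32), and missed the threshold (edgeR adjusted p = 0.0636). It passed with the replicate block, where the change was 0.80 ± 0.07 (edgeR adjusted p = 2.067e-04). It also passed without thapsigargin replicate 4 (edgeR adjusted p = 0.0493), without calcium-free replicate 4 (edgeR adjusted p = 0.0114) and with DESeq2 (adjusted p = 0.0054). Against the control of the same number, Ccn1 was higher by log2 ratios of 0.88, 0.79, 0.88 and 0.62 in calcium-free medium and of 0.74, 0.83, 0.69 and 0.93 with thapsigargin.

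Ccn2 (GRCm39 10:24471340-24474581, plus strand) was called in neither comparison with control in the fit without a replicate block. It was at 127, 124, 128 and 87.3 CPM in control, at 100.03, 111, 106 and 73.4 CPM with thapsigargin, and at 149, 151, 151 and 108 CPM in calcium-free medium. Within each replicate number the order was the same, with thapsigargin lowest and calcium-free medium highest. The log2 fold change was -0.26 ± 0.16 with thapsigargin (95% interval -0.60 to 0.08, edgeR adjusted p = 0.246) and 0.26 ± 0.16 in calcium-free medium (95% interval -0.08 to 0.60, edgeR adjusted p = 0.457). With the replicate block, Ccn2 fell by 0.26 ± 0.03 with thapsigargin (edgeR adjusted p = 2.000e-06) and rose by 0.26 ± 0.03 in calcium-free medium (edgeR adjusted p = 1.753e-05). Without replicate 4 of every group and with no block, it fell by 0.22 ± 0.03 (edgeR adjusted p = 8.592e-05) and rose by 0.25 ± 0.03 (edgeR adjusted p = 1.631e-04). The antisense transcript Gm15270 overlaps Ccn2 and had 123 counts over all 12 libraries together.

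The ratio of these paralogs had a separate range in each group. Per kb of exon, the level of Ccn2 was 0.545 ± 0.0446 of that of Ccn1 in control, with a range of 0.499 to 0.600 over the 4 libraries. It was 0.261 ± 0.00393 with thapsigargin (0.256 to 0.264) and 0.381 ± 0.0712 in calcium-free medium (0.320 to 0.484). No range overlapped another. This ratio was chosen after the values were seen, so it is given with no test.

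Ankrd1, a YAP target best known from heart and muscle (GRCm39 19:36089365-36097244, minus strand), was close to the limit of detection. Its counts were 7, 6, 2 and 4 in control, 9, 7, 15 and 4 with thapsigargin and 11, 8, 12 and 2 in calcium-free medium. These are 0.0544 to 0.173 CPM in control, 0.0913 to 0.346 CPM with thapsigargin and 0.0481 to 0.320 CPM in calcium-free medium, and the groups overlapped. Tested without the filter on low counts, its log2 fold change was 0.77 ± 0.54 with thapsigargin (edgeR adjusted p = 0.467) and 0.84 ± 0.54 in calcium-free medium (edgeR adjusted p = 0.651). A change was not detectable at this depth.

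**Figure D3:**
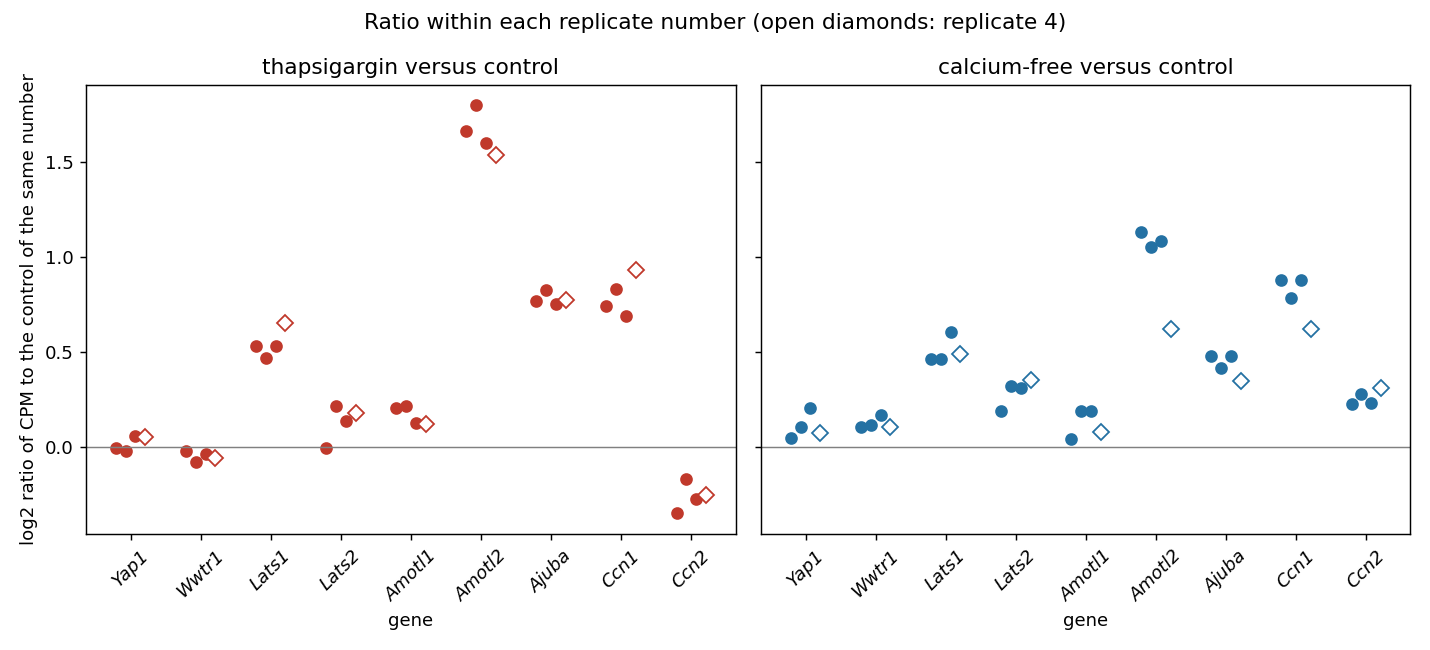
Log2 ratio of the CPM of each treated library to the control of the same replicate number, for the 9 tested members, with thapsigargin on the left and calcium-free medium on the right and open diamonds for replicate 4. Ccn2 lies below 0 in all 4 pairs with thapsigargin and above 0 in all 4 in calcium-free medium, while Ccn1 lies above 0 in all 8.

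The block and the removal of replicate 4 changed how many members passed. With the block, thapsigargin raised 6 members and lowered 1, beside 23.0% and 28.2% of all genes tested, and calcium-free medium raised all 9, beside 10.4% raised and 7.01% lowered. Without replicate 4 of every group, 6 members rose and 1 fell with thapsigargin, beside 24.4% and 21.2% of genes. In the same libraries 9 members rose in calcium-free medium, beside 10.5% raised and 5.16% lowered. Ankrd1 passed the filter in those libraries and was not called (log2 fold change 0.91 ± 0.46 with thapsigargin, edgeR adjusted p = 0.128, and 1.09 ± 0.46 in calcium-free medium, edgeR adjusted p = 0.131). The part of the Col1a1, Gfap and Xist differences of replicate 4 in these results was not tested.

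The treatments were then compared directly. Amotl2 was 1.58-fold higher with thapsigargin than in calcium-free medium (log2 difference 0.66 ± 0.14, edgeR adjusted p = 0.00496), and Ajuba was 1.28-fold higher (0.35 ± 0.04, edgeR adjusted p = 3.336e-05). Ccn2 was at 0.698 of its calcium-free level (log2 difference -0.52 ± 0.16, 95% interval -0.86 to -0.18, edgeR adjusted p = 0.0264). Of the genes tested, 14.6% were higher with thapsigargin and 13.2% lower, beside 2 and 2 of the members. The other lower member was Wwtr1 (log2 difference -0.17 ± 0.06, edgeR adjusted p = 0.0435).

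Both lower calls were fragile in the fit without a replicate block. The Ccn2 call was lost without thapsigargin replicate 4 and without calcium-free replicate 1, 2 or 3, where edgeR adjusted p reached 0.0720, and with no filter on low counts (0.103). The Wwtr1 call was lost without control replicate 1, 2 or 3, thapsigargin replicate 2, 3 or 4, or calcium-free replicate 1, 2 or 3, with an edgeR adjusted p of up to 0.118. It was also lost with RLE factors (edgeR adjusted p = 0.0598), upper quartile factors (0.0641), no filter (0.161) or only the 2 groups compared (0.101). Both calls held with the block, for Ccn2 (-0.52 ± 0.03, edgeR adjusted p = 1.613e-09) and Wwtr1 (-0.17 ± 0.03, edgeR adjusted p = 3.332e-05). Both also held without replicate 4 of every group, for Ccn2 (-0.47 ± 0.03, edgeR adjusted p = 1.006e-07) and Wwtr1 (-0.14 ± 0.03, edgeR adjusted p = 4.294e-04). With the replicate block, 2 members were higher, beside 22.4% of all genes, and 4 were lower, adding Yap1 (-0.09, edgeR adjusted p = 0.0246) and Lats2 (-0.16, edgeR adjusted p = 5.876e-04), beside 26.9%. Without the block, Yap1 missed the threshold (edgeR adjusted p = 0.126) but passed without thapsigargin replicate 4 (0.0418), and Lats2 missed it (edgeR adjusted p = 0.0601) but passed without control replicate 4 (0.0431), thapsigargin replicate 2 (0.0447) or calcium-free replicate 1 (0.0398).

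Several members did not differ between the treatments beyond their error. The log2 difference of Lats1 was 0.04 ± 0.05, with a 95% interval of -0.07 to 0.15 (edgeR adjusted p = 0.607). For Ccn1 the log2 difference was -0.03 ± 0.23, and the interval of -0.52 to 0.47 allows anything from 0.696-fold to 1.39-fold (edgeR adjusted p = 0.951). Amotl1 differed by 0.04 ± 0.04 (edgeR adjusted p = 0.512).

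Compared per kb of exon, the members spanned a wide range of levels. In control, Ccn1 was highest at 90.4 ± 20.6 CPM per kb (SD, n = 4). Ccn2 at 48.6 ± 8.22 and Wwtr1 at 44.7 ± 2.38 CPM per kb followed with overlapping libraries, and so did Lats2 at 28.9 ± 1.43 and Yap1 at 27.9 ± 0.903 CPM per kb. Amotl1 at 14.7 ± 0.214, Ajuba at 9.71 ± 0.189, Lats1 at 8.48 ± 0.330 and Amotl2 at 5.66 ± 0.503 CPM per kb came next, each separate from its neighbours, and Ankrd1 was at 0.0673 ± 0.0306 CPM per kb. With thapsigargin, Amotl2 moved from number 9 to number 6, at 17.8 ± 2.48 CPM per kb. There its libraries overlapped those of Ajuba at 16.7 ± 0.438 and those of Amotl1 at 16.6 ± 0.375 CPM per kb. In calcium-free medium the last 3 before Ankrd1 were Ajuba at 13.1 ± 0.391, Lats1 at 12.1 ± 0.843 and Amotl2 at 11.3 ± 2.35 CPM per kb, each overlapping the next.

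Members differed in which of them varied together over the 12 libraries, which share the treatments and replicate 4. Log2 CPM of Amotl2 and Ajuba had a Pearson r of 0.960, and that of Wwtr1 and Ccn2 a Pearson r of 0.956. Without replicate 4 (n = 9) these were 0.993 and 0.894. Over all 12, the r of Lats1 was 0.907 with Amotl2, 0.8997 with Ajuba and 0.798 with Ccn1. Those values were 0.925, 0.891 and 0.982 without replicate 4. Ccn1 and Ccn2 had an r of 0.458, and of 0.0990 without replicate 4, while Yap1 and Wwtr1 had an r of 0.207, and of 0.901 without it. In the full set the lowest value among the tested members was that of Ajuba and Ccn2, at -0.315 (-0.413 without replicate 4).

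The genes most like each member were also listed, by Pearson r over the same 12 libraries. They were sought among 11591 tested genes with a mean log2 CPM of 2 or more, leaving out Gm, LOC, Rik and similar unnamed symbols. Closest to Amotl2 were the kinase gene Nuak1 (r = 0.992), Csrnp1 (r = 0.990) and the phosphatase gene Ptpn21 (r = 0.989). Ajuba was closest to Tlk2 (r = 0.993), Relch (r = 0.991) and Bcl7b (r = 0.991). Lats1 was closest to Klf9 (r = 0.988), Usp37 (r = 0.987) and Asap1 (r = 0.984), the last a gene on the list of other YAP targets used below. Lats2 was closest to Kdr (r = 0.937), itself on the vascular marker list, Frmd3 (r = 0.933) and Lrrk2 (r = 0.927), and Amotl1 to Mrtfb (r = 0.963), Nav2 (r = 0.958) and Dennd4c (r = 0.956).

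The tissue factor gene F3, another listed YAP target, was closest of all to Ccn2 (r = 0.988) and was among the 3 closest to Wwtr1 (r = 0.968). Ccn2 was next closest to Fzd8 (r = 0.975) and Itga3 (r = 0.972), and Wwtr1 was closest to Il6st (r = 0.981) and Igtp (r = 0.978). Ccn1 was closest to Arhgap20 (r = 0.983), Lrch1 (r = 0.978) and Nr3c2 (r = 0.974). Yap1 was closest to Rmnd5a (r = 0.964), Sh3glb1 (r = 0.959) and Lnpk (r = 0.950). These r values describe 12 libraries in 3 treatment groups and carry no test.

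The rest of the pathway was described with 7 lists of genes, also chosen with earlier results of these data known. Among 14 Hippo kinases and adaptors, 6 rose and 1 fell with thapsigargin, and 2 rose and 2 fell in calcium-free medium. For every list below, the shares of all tested genes to read against are 16.4% higher and 14.8% lower with thapsigargin, and 3.78% higher and 1.55% lower in calcium-free medium. With upper quartile factors, 4 of the kinases and adaptors rose and 3 fell with thapsigargin. Their median log2 fold change was 0.03 with thapsigargin and 0.08 in calcium-free medium, against -0.05 and -0.01 over all genes tested. Taok2, a kinase that can activate the core kinases of the pathway, was at 83.4 ± 7.85 CPM in control, 119.9 ± 9.15 CPM under thapsigargin and 53.2 ± 9.31 CPM without calcium (mean ± SD of 4 libraries). It rose by a log2 fold change of 0.52 ± 0.11 with thapsigargin (edgeR adjusted p = 0.003135) and fell by 0.65 ± 0.11 in calcium-free medium (edgeR adjusted p = 0.0065), and the direct log2 difference was 1.172 ± 0.112 (edgeR adjusted p = 2.381e-05). The LATS cofactor gene Mob1a fell by 0.26 ± 0.03 with thapsigargin (edgeR adjusted p = 1.322e-04), and its paralog Mob1b rose by 0.35 ± 0.07 in calcium-free medium (edgeR adjusted p = 0.0176).

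Map4k4, a kinase that acts beside the core kinases, rose by 0.31 ± 0.07 with thapsigargin (edgeR adjusted p = 0.00433). In calcium-free medium its change was 0.26 ± 0.07 (edgeR adjusted p = 0.0495). That call and the calcium-free call of Mob1b did not hold without single libraries. Mob1b was lost without control replicate 3 or calcium-free replicate 2 or 3 (edgeR adjusted p up to 0.0656). Map4k4 was lost without any 1 of 9 libraries, the exceptions being control replicate 4, thapsigargin replicate 4 and calcium-free replicate 1 (edgeR adjusted p up to 0.137). With only the 2 groups compared, Mob1b (edgeR adjusted p = 0.0533) and Map4k4 (0.0568) were also lost. With the replicate block, 6 kinases and adaptors rose and 3 fell with thapsigargin, beside 23.0% and 28.2% of all genes, and 5 rose and 2 fell in calcium-free medium, beside 10.4% and 7.01%. Those shares hold for the blocked counts of the other lists too.

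Among 13 upstream scaffolds and junction regulators, 4 rose with thapsigargin and the other 9 did not pass. At an unadjusted p under 0.05, 1 was lower, beside 6842 of 17077 genes in either direction. In calcium-free medium 4 rose and 2 fell. The medians were 0.12 and 0.18. Rassf1, a scaffold that binds the core kinases, averaged 16.5 ± 0.849 CPM (SD, n = 4) without treatment and 33.5 ± 1.82 CPM under thapsigargin, a log2 fold change of 1.02 ± 0.08 (edgeR adjusted p = 3.359e-06). In calcium-free medium it was at 22.0 ± 2.82 CPM, with a change of 0.41 ± 0.08 (edgeR adjusted p = 0.0154). The angiomotin gene Amot rose by 0.25 ± 0.05 with thapsigargin (edgeR adjusted p = 0.00397) and by 0.27 ± 0.05 in calcium-free medium (edgeR adjusted p = 0.0157).

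Nf2, the gene of the activator merlin, fell by 0.25 ± 0.05 in calcium-free medium (edgeR adjusted p = 0.0142). With thapsigargin its change was 0.07 ± 0.05 (edgeR adjusted p = 0.356, or 0.0478 with the replicate block). The tight junction gene Tjp1 rose by 0.31 ± 0.05 with thapsigargin (edgeR adjusted p = 3.45e-04) and by 0.18 ± 0.05 in calcium-free medium (edgeR adjusted p = 0.0491). The calcium-free calls of this list were also fragile. Rassf1 was lost without control replicate 1 or 2 or calcium-free replicate 2, Amot without control replicate 3 or calcium-free replicate 2 or 3, and Nf2 without calcium-free replicate 2 or 3, with edgeR adjusted p of up to 0.0608. Tjp1 was lost without any 1 of 10 libraries, the exceptions being calcium-free replicates 1 and 4 (edgeR adjusted p up to 0.159). Upper quartile factors (edgeR adjusted p = 0.0903), no filter (0.0592) and only the 2 groups compared (0.114) also ended the Tjp1 call. With only the 2 groups compared, Rassf1 was lost too (edgeR adjusted p = 0.0521). With the replicate block, 7 of the list rose and 1 fell with thapsigargin, and 7 rose and 2 fell in calcium-free medium.

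**Figure D4:**
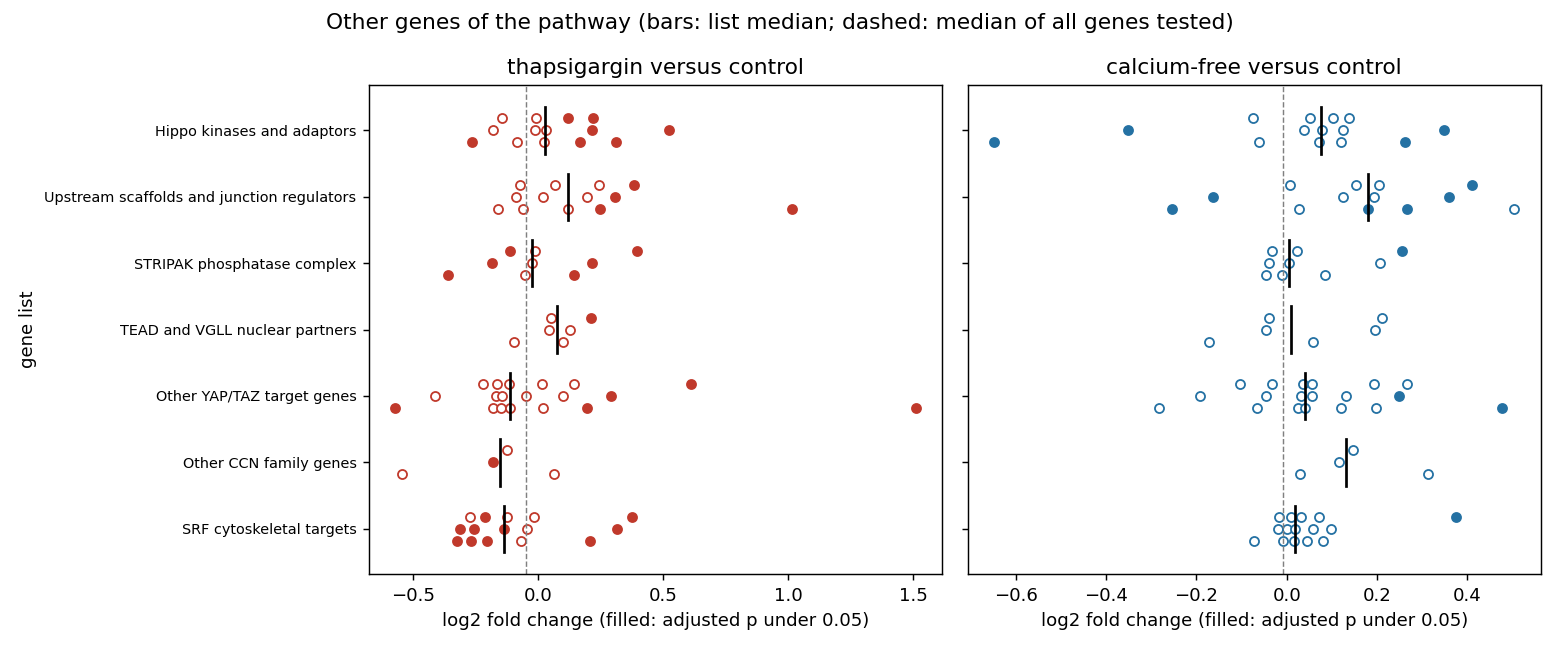
Log2 fold change of every tested gene on the 7 pathway lists, for thapsigargin versus control and calcium-free versus control, with filled points for an edgeR adjusted p under 0.05, black bars for list medians and a dashed line for the median of all genes tested (each panel has its own scale). Nuak2 at 1.51 and Rassf1 at 1.02 lie farthest to the right with thapsigargin, and 7 of 15 SRF cytoskeletal targets are called below 0 there.

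The STRIPAK complex carries a phosphatase that opposes the core kinases. With thapsigargin, 3 of its 9 listed genes rose and 3 fell (beside 16.4% and 14.8% of all genes), and in calcium-free medium 1 rose (beside 3.78%). The medians were -0.02 and 0.00. Strn rose by 0.40 ± 0.06 (edgeR adjusted p = 2.708e-04) and Slmap fell by 0.36 ± 0.04 (edgeR adjusted p = 6.062e-05) with thapsigargin. In calcium-free medium the riser was Strn3, by 0.25 ± 0.05 (edgeR adjusted p = 0.00805). There the change of Strn was 0.21 ± 0.06 (edgeR adjusted p = 0.0629), and the replicate block called it higher (0.00304), for 2 of the list in all.

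Among 6 genes of the TEAD and VGLL nuclear partners, Tead3 rose with thapsigargin by 0.21 ± 0.06 (edgeR adjusted p = 0.0133) and the other 5 did not pass without the block. In calcium-free medium 0 of the 6 passed with edgeR without the block. At an unadjusted p under 0.05, 2 were higher and 1 lower, beside 3030 of 17077 genes in either direction. With DESeq2 1 was higher, beside 1058 of all genes. Tead1, the most abundant named on this list, was at 259 ± 11.3 CPM in control and 297 ± 28.2 CPM in calcium-free medium, a log2 fold change of 0.20 ± 0.06 (edgeR adjusted p = 0.0970, or 0.00905 with the replicate block). With the replicate block, Vgll3 was higher with thapsigargin (0.13 ± 0.04, edgeR adjusted p = 0.0104) and in calcium-free medium (0.21 ± 0.04, edgeR adjusted p = 0.00111), and Tead3 was lower in calcium-free medium (-0.17 ± 0.05, edgeR adjusted p = 0.0306).

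Of 19 other known YAP and TAZ target genes, 4 rose and 1 fell with thapsigargin (beside 16.4% and 14.8% of all genes), with a median log2 fold change of -0.11. In calcium-free medium 2 rose (beside 3.78%), with a median of 0.04. Nuak2, a kinase gene that YAP is known to induce, was at 23.3, 24.4, 26.0 and 30.7 CPM in control, at 67.3, 75.1, 72.1 and 83.4 CPM with thapsigargin and at 36.2, 35.5, 35.6 and 38.0 CPM in calcium-free medium. The groups did not overlap. Its log2 fold change was 1.51 ± 0.08 with thapsigargin (edgeR adjusted p = 3.661e-07) and 0.48 ± 0.08 in calcium-free medium (edgeR adjusted p = 0.00756).

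Fjx1 fell by 0.57 ± 0.05 with thapsigargin (edgeR adjusted p = 3.134e-06). Asap1 rose by 0.29 ± 0.03 with thapsigargin (edgeR adjusted p = 2.096e-05) and by 0.25 ± 0.03 in calcium-free medium (edgeR adjusted p = 9.611e-04). Gadd45a, a stress gene that many pathways induce, rose by 0.61 ± 0.12 with thapsigargin (edgeR adjusted p = 0.00186). In calcium-free medium the change of Gadd45a was -0.28 ± 0.12 (edgeR adjusted p = 0.241, or 0.00344 with the replicate block). With the block, 4 of the 19 rose and 10 fell with thapsigargin (beside 23.0% and 28.2% of all genes), and 6 rose and 2 fell in calcium-free medium (beside 10.4% and 7.01%). Against calcium-free medium, 3 were higher and 6 lower with thapsigargin (beside 14.6% and 13.2%), or 3 and 12 with the block (beside 22.4% and 26.9%).

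The other CCN genes were low. Ccn3 averaged 18.96 ± 1.26 CPM (SD, n = 4) in the controls and 16.8 ± 0.991 CPM under thapsigargin, and it fell by 0.18 ± 0.06 (edgeR adjusted p = 0.0439), a call that 8 of the 12 libraries left out in turn each ended. These were control replicates 3 and 4, thapsigargin replicates 1, 2 and 3, and calcium-free replicates 2, 3 and 4 (edgeR adjusted p up to 0.121). The Ccn3 call was also lost with RLE factors (edgeR adjusted p = 0.0574), no filter (0.171) or only the 2 groups compared (0.0741). Without replicate 4 of every group it was lost too (edgeR adjusted p = 0.0623). Ccn4, Ccn5 and Ccn6 did not pass in either comparison with control without the block, with Ccn6 at 0.327 CPM in control. Ccn4 was higher in calcium-free medium in 4 of 4 pairs, by 0.31 ± 0.22 (edgeR adjusted p = 0.551), and the replicate block called it higher (0.32 ± 0.07, edgeR adjusted p = 0.00566).

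SRF is a factor that responds to the state of actin and shares some targets with YAP. Of 15 listed SRF targets, 7 fell and 3 rose with thapsigargin (beside 14.8% and 16.4% of all genes), with a median log2 fold change of -0.14. The actin genes Actg1 and Actb fell by 0.31 ± 0.04 (edgeR adjusted p = 6.659e-05) and 0.26 ± 0.04 (edgeR adjusted p = 2.559e-04). Acta2 fell by 0.21 ± 0.05 (edgeR adjusted p = 0.00519) and the tropomyosin gene Tpm1 by 0.20 ± 0.03 (edgeR adjusted p = 7.03e-04). In calcium-free medium 1 of the 15 rose, and these 4 genes had changes from -0.07 to 0.06. Acta2 leads the vascular, meningeal and fibroblast marker list, whose sum was also lowest with thapsigargin, and its part in these values was not tested.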

How the data were processed

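Poly-A RNA was measured in 12 libraries from a stranded kit. The authors deposited expected counts per gene. The tools named per the submitters' processing notes are STAR 2.7.2b, featureCounts 1.6.4 of Subread, cutadapt 1.17 and bcl2fastq 2.20.0.422, with the genome build GRCm39. The strand setting is not given in the sources used here, so overlapping genes are uncertain. In each library 14.2% to 15.9% of values were not whole, and counts were rounded.

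Groups and replicate numbers came from the titles. In R 4.3.3, edgeR 4.0.16 (robust quasi-likelihood, TMM, its expression filter at 10 counts, 1 mean per group over all 12 libraries) was fitted to all genes. P-values were adjusted by Benjamini-Hochberg within each comparison, with calls under 0.05, and the script was tested on simulated data. P-values set a difference between groups against the modelled spread between these libraries. With the block, that spread leaves out what libraries of the same number share. CPM used unrounded counts and normalised library sizes, and levels between genes were compared per kb of summed exon length. Alternatives were other size factors, no filter, DESeq2 1.42.0, unrounded counts, 2-group fits, a replicate block and libraries left out.

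The groups share replicate numbers 1 to 4 in the titles. Deviations from group means correlated across genes in every same-number pair (r 0.160 to 0.827), and the numbers were used as a block in an alternative fit. For replicate 4, r was 0.804 to 0.827. Among replicates 1 to 3 it was 0.160 to 0.382 for the same and 0.234 to 0.401 for different numbers. Sharing by number was thus seen for replicate 4 alone, and pairs among replicates 1 to 3 are by title only. Replicate counts in each group were farther apart than counting noise (chi-square per degree of freedom 1.66 to 46.0).

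The members and lists were chosen with earlier results of these data known. Named list genes are the 4 of each list ranked first by the F-test over the 3 groups, and likeness was ranked by Pearson r, 3 genes per member. Promoter sequences are from RefSeq (GRCm38.p6), with the first entry used for Wwtr1 and Lats2. Positions are those of the deposited table (GRCm39).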

Additional observations from a re-analysis of the deposited data

Results flagged for a closer look

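Among 30 sets of 4 libraries (10 genes in 3 groups), 4 held a library whose gap to the nearest of the others exceeded Dixon's critical value at the 95% level, and it was replicate 4 each time. Ccn2 was at 87.3 CPM in control replicate 4, against 124 to 128 CPM in the other controls, and at 108 CPM in calcium-free replicate 4, against 149 to 151 CPM. Wwtr1 was at 189.9 CPM in thapsigargin replicate 4, against 211 to 216 CPM. Yap1 was at 135 CPM in thapsigargin replicate 4, above the 124 to 125 CPM of the others. Chance alone marks about 5% of such sets. Replicate 4 also differed in Col1a1, Gfap and Xist, and the part of that difference in these values was not tested.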

How the results depend on the processing

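No member called in a comparison changed direction under any alternative. With thapsigargin, members called lower went from 0 to 1 with the replicate block and to 1 without replicate 4 of every group (Ccn2 both times). In calcium-free medium, members called higher went from 4 to 7 with DESeq2 and to 9 with the replicate block or without replicate 4 of every group. Between the treatments, members called lower went from 2 to 1 with RLE factors, upper quartile factors or only the 2 groups compared, to 0 with no filter, to 4 with the block, and from 0 to 3 with single libraries left out. The block changed no member's call beyond those given with the results.

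Over all genes, calls lower with thapsigargin went from 2531 to 1456 with no filter and to 4817 with the block. Calls higher in calcium-free medium went from 646 to 1058 with DESeq2, 404 with only 2 groups, 1771 with the block and 1782 without replicate 4, and those lower from 265 to 175 with no filter, 428 with DESeq2, 96 with only 2 groups, 1197 with the block and 877 without replicate 4. Between the treatments, calls lower went from 2259 to 1247 with no filter and 4595 with the block, and calls higher from 2498 to 3833 with the block. With single libraries left out, calcium-free calls ran from 296 to 849 higher and from 76 to 600 lower. Upper quartile factors took the share of calcium-free calls that were higher from 70.9% to 58.5% and that of thapsigargin calls from 52.5% (2800 against 2531) to 44.6% (2609 against 3241), so that more genes were then called lower, and moved the median of all genes by under 0.1 on the log2 scale. The causes were not tested. Depth limits Ankrd1, with 2 to 15 counts a library.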
